A study of Mus musculus with 8 samples.

Results

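The genes described here are 9 members of the Sonic hedgehog signalling pathway, namely Shh, Ptch1, Smo, Gli1, Gli2, Gli3, Hhip, Boc and Gas1. They were chosen by name, and all 9 matched a single Ensembl gene among the 38355 genes of the count tables. RNA was sequenced from dorsal root ganglia, which hold the cell bodies of sensory neurons, and the attached spinal cord of C57Bl6 mouse embryos at stage E11.5. Per the series text the tissue was of thoracic level. The first group held 4 libraries of Prdm12-/- embryos (KO), mutant for the zinc-finger transcription factor gene Prdm12, and the other held 4 libraries of wild-type embryos (WT). All 8 listed libraries were used, although the submitters describe the experiment as done in triplicate. The labels name neither the deleted part of Prdm12, nor pools, nor whether libraries came from separate embryos, so the p-values measure the spread between these libraries, which may in part be technical.

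Sonic hedgehog (Shh) is a secreted protein made by the notochord and then by the floor plate at the ventral midline of the neural tube. It binds the receptor Patched 1 (Ptch1), which otherwise holds the membrane protein Smoothened (Smo) inactive, and active Smoothened leads the GLI transcription factors to switch on target genes, Gli1, Ptch1 and Hhip among them. In the ventral spinal cord the strength and duration of this signal set which progenitor domain, and so which interneuron or motor neuron class, arises at each level. In the somites beside the neural tube the same signal induces the sclerotome, which forms vertebrae and ribs. The comparison asks whether this upstream signal differed in embryos without Prdm12, a gene expressed in sensory neurons and in p1 progenitors of the ventral cord.

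RefSeq promoter windows (GRCm38.p6, the assembly that mm10 is built on; 250 bases before to 50 after the annotated start) were at hand for 6 of the 9 genes, Ptch1, Smo, Gli2, Gli3, Hhip and Gas1. The sequence that GLI proteins bind is known as GACCACCCA. It was the only motif searched, on both strands, and 0 of the 6 windows held it, against 0.253% of all 32851 windows in the table. The number of CG dinucleotides in the 6 windows ran from 17 in Smo and Gas1 to 47 in Ptch1, against a median of 7 and an upper quartile of 20 over all windows. The windows of Ptch1, Gli2, Gli3 and Hhip lay above that quartile and those of Smo and Gas1 below it. The windows of Ptch1 and Hhip are shown because both genes are feedback targets of the pathway whose read-out is given below; capitals mark CG dinucleotides.
Ptch1, chr13:63565686-63565985, minus strand: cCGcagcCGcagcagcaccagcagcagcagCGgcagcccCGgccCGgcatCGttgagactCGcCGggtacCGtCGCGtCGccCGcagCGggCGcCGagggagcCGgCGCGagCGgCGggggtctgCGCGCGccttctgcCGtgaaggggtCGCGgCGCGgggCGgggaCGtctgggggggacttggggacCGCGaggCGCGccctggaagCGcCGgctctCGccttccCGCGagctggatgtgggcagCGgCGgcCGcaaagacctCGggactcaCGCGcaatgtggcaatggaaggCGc
Hhip, chr8:80057959-80058258, minus strand: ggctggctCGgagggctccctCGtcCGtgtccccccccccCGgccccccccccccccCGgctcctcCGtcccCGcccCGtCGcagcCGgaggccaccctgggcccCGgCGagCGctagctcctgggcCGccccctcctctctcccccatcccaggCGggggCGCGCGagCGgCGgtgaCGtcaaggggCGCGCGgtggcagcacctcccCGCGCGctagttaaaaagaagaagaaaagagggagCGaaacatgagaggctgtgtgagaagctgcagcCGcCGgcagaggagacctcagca
The Hhip window held 30 CG dinucleotides. The Ptch1 window lay inside the gene as annotated here, whose 5′ end is at 63573598, so it covers an internal start. The Gli3 window, from 15463473, also lay inside its gene, which begins at 15463235. The Gas1 window, 60177486 to 60177785 on the minus strand, lay wholly outside its gene as annotated here, whose 5′ end is at 60177365. Letters in these windows say nothing about GLI binding farther away.

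Library totals lay between 23088908 and 28500792 counts in 7 libraries, while WT replicate 1 held 67782435. Prdm12 stood between 0.962 and 1.55 CPM (read counts scaled to a common library total) in KO libraries and between 22.2 and 39.6 CPM in WT libraries (log2 fold change −4.70, edgeR adjusted p = 0.000124), so no library went against its label. Reads of Y-linked genes were present in KO replicates 1 and 2 and WT replicates 2 and 3 and nearly absent from the other 4 libraries, so both groups held 2 libraries of each kind. The tissue also held muscle and mesenchyme: the mean log2 CPM of 27 such markers was between 6.35 and 6.63 in KO libraries and between 6.23 and 6.34 in WT libraries, with no overlap. Fits below that include this score therefore cannot fully separate it from genotype, and their values are given as descriptions. KO replicate 4 held the highest score, and the other KO libraries lay between 6.35 and 6.445. Each value below is a mix of spinal cord, ganglia and surrounding mesenchyme, and fewer cells of a type cannot be told apart from less RNA per cell.

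None of the 9 hedgehog genes passed the test between KO and WT. With edgeR's quasi-likelihood test and Benjamini-Hochberg adjustment over 16068 genes, 0 of 9 were called, against 0.299% of all genes tested (0.056% higher and 0.243% lower in KO), a background at which 0 calls among 9 genes says little. At an unadjusted p under 0.05 there were also 0 of 9 (6.35% of all genes), and the KO and WT ranges overlapped for all 9 genes, while they did not overlap for 4.14% of all genes (1.69% higher and 2.45% lower in KO). DESeq2 and limma-voom called 0 of 9 as well. The limma-voom fit, here and below, weighted each library by its estimated quality. In that fit Shh had a log2 fold change of −0.41 at an unadjusted p of 0.0229 (adjusted p = 0.432). The median log2 fold change (KO over WT) of the 9 genes was 0.007, beside −0.003 over all genes, and the log2 fold change lay within 0.1 of zero for 6 of the 9 genes and for 68% of all genes. Adjusted p-values lay between 0.839 and 0.999.

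**Figure D1:**
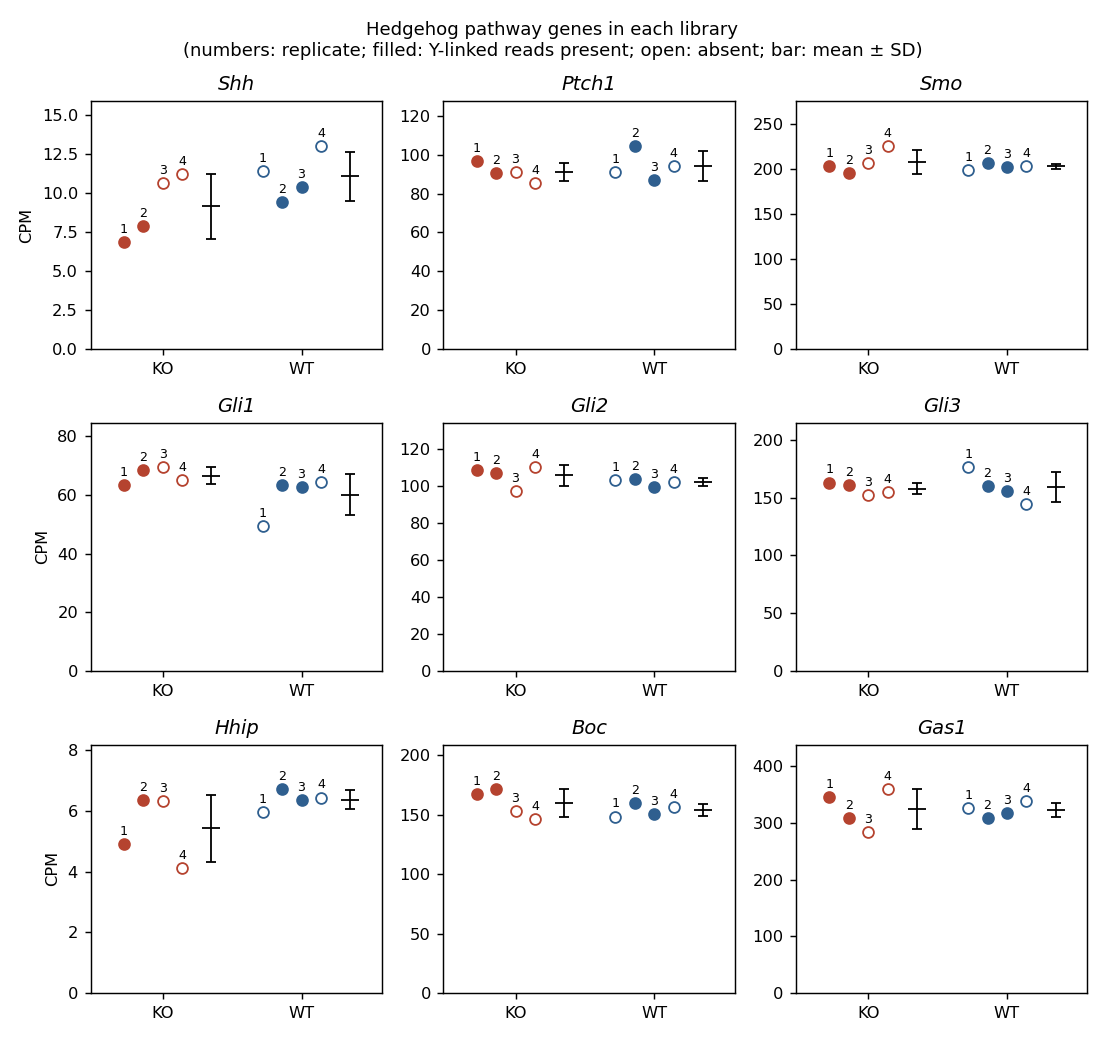
Abundance of the 9 hedgehog pathway genes (y axis, CPM, starting at 0) in each KO library (red, left) and WT library (blue, right), with replicate numbers, filled where Y-linked reads were present, and the group mean ± SD (n = 4 each). KO and WT values overlap in every panel, and Shh spreads most widely for its level, from 6.86 to 13.1 CPM.

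Shh encodes the ligand. It lies on chromosome 5 (mm10, 28456815 to 28467256, minus strand), as ENSMUSG00000002633. It stood at 6.86, 7.89, 10.6 and 11.2 CPM in KO replicates 1 to 4, against 11.45, 9.45, 10.4 and 13.1 CPM in WT replicates 1 to 4. The 2 lowest values were both KO libraries and the highest was a WT library, but KO replicates 3 and 4 lay within the WT range. The means were 9.16 ± 2.11 CPM in KO and 11.1 ± 1.55 CPM in WT (SD, n = 4 each). The log2 fold change was −0.28 (SE 0.16, 95% interval −0.63 to 0.07, edgeR adjusted p = 0.855), an interval that spans KO levels of 0.645 to 1.05 of the WT level. It was the largest difference among the 9 genes in either direction, and 190 to 771 reads per library stood behind it. The difference was −0.16 without KO replicate 1, −0.20 without WT replicate 4, and −0.53 when the muscle and mesenchyme score was added to the model; none of these passed.

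Shh was lower in every library with Y-linked reads (6.86 to 10.4 CPM) than in every library without (10.6 to 13.1 CPM), a separation that 3.4% of all genes showed in that direction. Among libraries with Y-linked reads the means were 7.38 CPM in KO and 9.92 CPM in WT. Among those without, they were 10.9 CPM in KO and 12.3 CPM in WT. KO was thus the lower in both kinds, with 2 libraries of each kind per group. With the sex score as a covariate the log2 fold change was −0.28 at a smaller error (edgeR unadjusted p = 0.0108, adjusted p = 0.476). The separation was noticed after the values were seen, and none of the other 8 genes showed it.

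Floor plate and notochord cells are the embryonic sources of Shh in this region. Foxa2, the forkhead factor that specifies floor plate, stood at 2.62 ± 0.510 CPM in KO and 3.22 ± 0.707 CPM in WT (SD, n = 4 each; log2 fold change −0.31, 95% interval −0.73 to 0.10, edgeR adjusted p = 0.869). The log2 fold change of Foxa2 was −0.19 without KO replicate 1 and −0.65 once the muscle and mesenchyme score was included. Of the 6 floor plate markers 3 had values above zero and 3 below, with a median log2 fold change of 0.01. Among them 0 were called and 0 reached an unadjusted p under 0.05, against 0.299% and 6.35% of all genes. The extracellular matrix gene Spon1 had a log2 fold change of 0.07, which was −0.0015 without KO replicate 4. The markers summed to 464 to 602 CPM in KO libraries and 509 to 530 CPM in WT libraries. Among notochord markers Noto had no read in any library and Tbxt, the gene for Brachyury, differed by −0.18 on the log2 scale (edgeR adjusted p = 0.951), with Chrd at 0.07 and Nog at 0.05, both BMP antagonists made also by other cells. The value of Tbxt rested on single libraries: it was −0.0057 without KO replicate 1, −0.31 without KO replicate 2 and −0.42 with limma-voom.

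**Figure D2:**
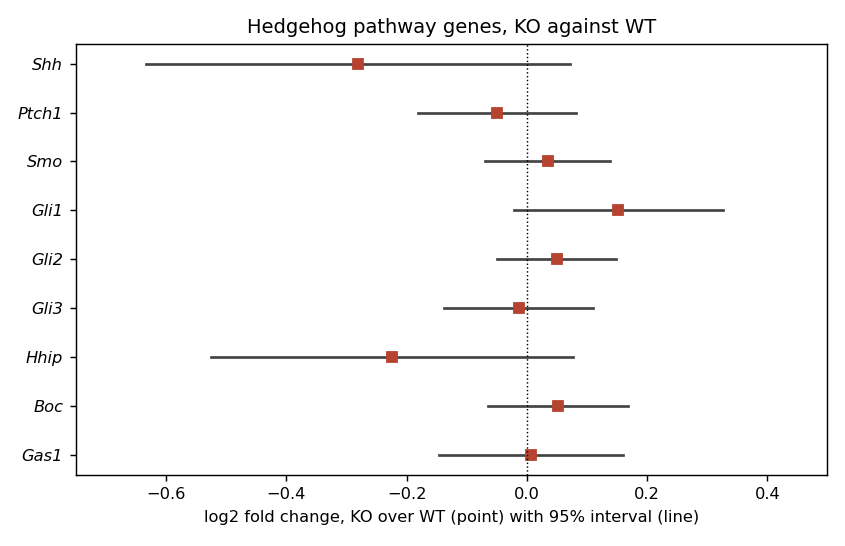
Log2 fold change of KO over WT (x axis) for each of the 9 genes (y axis), as the fitted value (square) with its 95% interval (line). Every interval spans zero. Shh and Hhip, the genes with the fewest reads, have the widest intervals, and Gli1 has the highest value at 0.15.

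Ptch1 encodes the receptor and is itself a target of the pathway. On chromosome 13 (63508328 to 63573598, ENSMUSG00000021466), it had 96.7, 90.7, 91.3 and 85.2 CPM in KO replicates 1 to 4, against 91.1, 104.6, 87.1 and 93.9 CPM in WT replicates 1 to 4. The highest and second lowest values were WT libraries, and the groups overlapped over most of their range. The means were 91.0 ± 4.68 CPM in KO and 94.2 ± 7.52 CPM in WT (SD, n = 4 each), with a log2 fold change of −0.05 (SE 0.06, 95% interval −0.18 to 0.08, edgeR adjusted p = 0.956). KO levels between 0.883 and 1.06 of WT lie within that interval.

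Gli1 encodes the GLI factor that acts only as an activator and that is itself switched on by the signal. On chromosome 10 (127329882 to 127341974, ENSMUSG00000025407), it had 63.3, 68.3, 69.4 and 65.1 CPM in KO replicates 1 to 4, against 49.6, 63.5, 62.6 and 64.6 CPM in WT replicates 1 to 4. The 3 highest values were KO libraries, but KO replicate 1 lay below WT replicates 2 and 4, and WT replicate 1 stood well below all others. The means were 66.5 ± 2.82 CPM in KO and 60.1 ± 7.06 CPM in WT (SD, n = 4 each; log2 fold change 0.15, SE 0.08, 95% interval −0.02 to 0.33, edgeR adjusted p = 0.839). Without WT replicate 1 the log2 fold change was 0.07, and with limma-voom it was 0.08. Without any other single library it lay between 0.14 and 0.19, and with the replicate block it was 0.16. None of these passed. In the main fit Gli1 was the member with the smallest unadjusted p, 0.0802.

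Hhip encodes a membrane protein that binds hedgehog ligands and is another feedback target. On chromosome 8 (79965851 to 80058006, ENSMUSG00000064325), it had 4.91, 6.37, 6.34 and 4.11 CPM in KO replicates 1 to 4, against 5.96, 6.71, 6.35 and 6.45 CPM in WT replicates 1 to 4. KO replicates 1 and 4 lay below every WT library, and KO replicates 2 and 3 within the WT range. The means were 5.43 ± 1.11 CPM in KO and 6.37 ± 0.314 CPM in WT (SD, n = 4 each; log2 fold change −0.22, SE 0.14, 95% interval −0.52 to 0.08, edgeR adjusted p = 0.871). It was −0.11 without KO replicate 4 and −0.04 once the muscle and mesenchyme score was included. Hhip rested on 94 to 401 reads per library, the fewest of the 9 genes.

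The feedback targets did not share a sign. Gli1 was above zero and Ptch1 and Hhip below, each with an interval that spans zero. WT replicate 1 was the lowest library for Gli1 but the second highest for Shh.

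**Figure D3:**
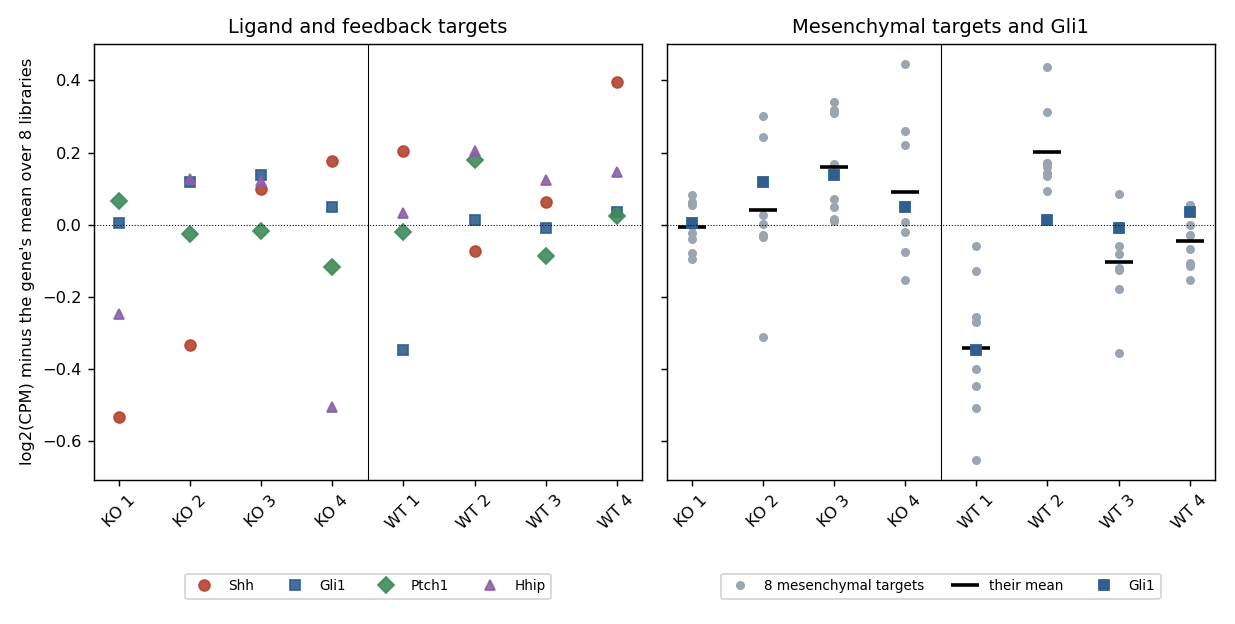
Difference of log2 CPM from each gene's mean over the 8 libraries (y axis), by library (x axis, KO left, WT right), for Shh and 3 feedback targets (left panel) and for 8 mesenchymal targets with their mean and Gli1 (right panel). WT replicate 1 is low for Gli1 and the mesenchymal targets and high for Shh. KO replicates 1 and 2 are low for Shh but not for Gli1.

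The signal transducer Smo had 203.3, 195.5, 206.7 and 226.1 CPM in KO replicates 1 to 4, against 199.4, 206.8, 202.3 and 203.3 CPM in WT replicates 1 to 4. KO libraries held both the lowest and the highest value. The means were 207.9 ± 13.0 CPM in KO and 203.0 ± 3.08 CPM in WT (SD, n = 4 each; log2 fold change 0.03, 95% interval −0.07 to 0.14, edgeR adjusted p = 0.959). Smo lies on chromosome 6 (29735503 to 29761365, ENSMUSG00000001761).

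Gli2, the main activator early in the response, had 108.6, 106.9, 97.4 and 109.9 CPM in KO replicates 1 to 4, against 103.3, 103.7, 99.4 and 101.9 CPM in WT replicates 1 to 4. Gli3, which acts largely as a repressor where the signal is weak, had 163.0, 160.6, 152.3 and 154.8 CPM in KO replicates 1 to 4, against 176.0, 160.2, 155.8 and 144.1 CPM in WT replicates 1 to 4. For Gli2 the lowest value was a KO library, as was the highest. For Gli3 both ends of the range were WT libraries. The log2 fold change was 0.05 for Gli2 (SE 0.05, 95% interval −0.05 to 0.15, edgeR adjusted p = 0.93) and −0.01 for Gli3 (SE 0.06, 95% interval −0.14 to 0.11, adjusted p = 0.988). For Gli2 it was 0.09 without KO replicate 3. Gli2 lies on chromosome 1 (118834132 to 119053619, ENSMUSG00000048402) and Gli3 on chromosome 13 (15463235 to 15730026, ENSMUSG00000021318). RNA counts do not show how much of a GLI protein is in its activator or repressor form.

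Boc and Gas1 encode cell-surface proteins that bind Shh and help it to act through Patched. Boc had 167.1, 171.4, 153.3 and 146.4 CPM in KO replicates 1 to 4, against 148.5, 159.9, 150.8 and 156.5 CPM in WT replicates 1 to 4. KO replicates 1 and 2 were the highest and KO replicate 4 the lowest, with the WT libraries between (log2 fold change 0.05, SE 0.05, 95% interval −0.06 to 0.17, edgeR adjusted p = 0.94). The value for Boc was 0.016 without KO replicate 2 and 0.16 once the muscle and mesenchyme score was included (unadjusted p = 0.0459, adjusted p = 1). Gas1 had 346.6, 309.2, 283.8 and 359.5 CPM in KO replicates 1 to 4, against 326.8, 308.8, 318.5 and 338.7 CPM in WT replicates 1 to 4. Again KO libraries held both ends of the range (log2 fold change 0.01, SE 0.07, 95% interval −0.15 to 0.16, edgeR adjusted p = 0.999). Boc lies on chromosome 16 (44485049 to 44558897, ENSMUSG00000022687) and Gas1 on chromosome 13 (60174405 to 60177365, ENSMUSG00000052957).

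The levels of the 9 genes, as CPM per kilobase of annotated exon, ran over a wide range in the same tissue. Over the 8 libraries Gas1 was highest with a mean of 109 CPM per kilobase. Smo (36.5) and Boc (35.2) came next and did not differ beyond their spread over libraries, and neither did Gli3 (16.5) and Gli2 (15.1). Gli1 (12.7), Ptch1 (6.53), Shh (3.56) and Hhip (0.650) followed, each with a range that did not overlap its neighbours. These levels use the union of all annotated exons, 14185 bases for Ptch1, and so are low for a gene whose shorter transcripts prevail. The spread between libraries also differed among the genes: the coefficient of variation of CPM was 23.1% in KO and 14.01% in WT for Shh and 20.5% in KO and 4.93% in WT for Hhip. For Smo, by contrast, it was 6.26% in KO and 1.52% in WT. Shh rested on 190 to 771 reads per library, Hhip on 94 to 401 and Smo on 4883 to 13422. How much of these spreads is counting noise was not tested.

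Other genes of the pathway were examined in the same fit. Of 43 further genes for ligand release, receptors, GLI control and cilia, 42 passed the filter on low counts; 20 had a log2 fold change above zero and 22 below, with a median of −0.002. The edgeR test called 0 of the 42, as did DESeq2 and limma-voom, and 2 reached an unadjusted p under 0.05. Against 0.299% called and 6.35% at that unadjusted p over all genes, these counts say little about the 42 genes. Among ligand and release genes, Dhh, the ligand of Schwann cell precursors, stood at 1.83 ± 0.252 CPM in KO and 1.77 ± 0.282 CPM in WT (SD, n = 4 each), and Ihh lay under the filter. The members of that list with the smallest p were Scube2 (log2 fold change −0.19), which helps to release the ligand, its relative Scube1 (−0.10), and Disp1 (0.10), the transporter that exports Shh. Scube2 had 25.6 ± 3.76 CPM in KO and 29.3 ± 1.61 CPM in WT (SD, n = 4 each; edgeR adjusted p = 0.818), and its log2 fold change was 0.05 once the muscle and mesenchyme score was included.

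Among receptors and co-receptors Gpc3, a glypican that binds Shh, had a log2 fold change of 0.10 and the co-receptor gene Cdon one of 0.05. The 22 genes of transduction and GLI control spanned −0.14 to 0.14. Evc, which encodes a partner of Smoothened in the cilium, was the gene with the smallest p there, with 53.8, 54.2, 52.3 and 52.9 CPM in KO replicates 1 to 4, against 46.9, 50.6, 50.3 and 51.5 CPM in WT replicates 1 to 4. Its groups did not overlap, yet the log2 fold change of 0.10 (SE 0.04) did not pass (edgeR unadjusted p = 0.0461, adjusted p = 0.775). The kinase gene Gsk3b had a log2 fold change of −0.10 and Efcab7, whose product tethers the Evc complex, one of −0.14. Of the 6 cilium genes Ift172, a subunit of the transport machinery, had 0.11 (unadjusted p = 0.0371, adjusted p = 0.743), Inpp5e 0.08 and Ift122 0.06. Sufu, the main brake on GLI proteins, had 110.4, 102.1, 107.6 and 110.7 CPM in KO replicates 1 to 4, against 108.2, 106.5, 108.0 and 109.3 CPM in WT replicates 1 to 4; it was named after its values were seen.

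**Figure D4:**
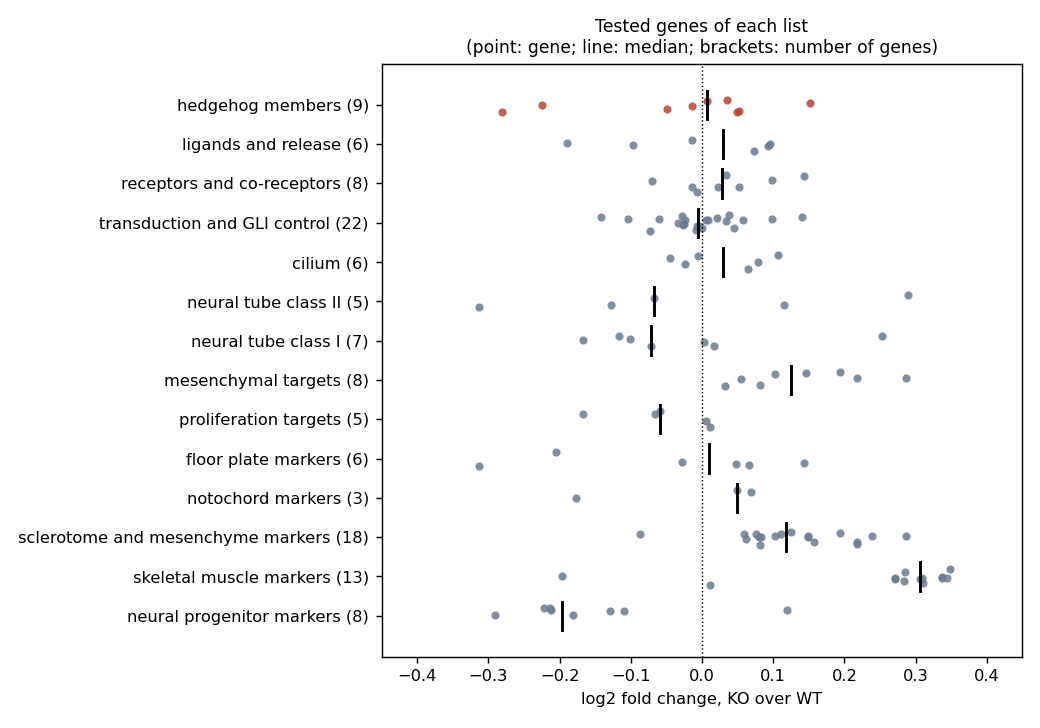
Log2 fold change of KO over WT (x axis) for each tested gene (point) of the 9 hedgehog genes (top row, red) and of other lists (y axis, with the number of genes), with each list's median (line). The hedgehog genes and the other pathway lists lie around zero, while the skeletal muscle markers have a median of 0.31 and the neural progenitor markers one of −0.20.

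The transcription factors that read the Shh gradient in the neural tube were examined next. Class II factors are induced by the signal and class I factors are repressed by it. Of 5 tested class II genes 2 had values above zero and 3 below (median log2 fold change −0.07), and of 7 class I genes 3 and 4 (median −0.07). The edgeR test called 0 of the 12, DESeq2 and limma-voom called 0 as well, and 1 reached an unadjusted p under 0.05. Against 0.299% called and 6.35% at that unadjusted p over all genes, these counts say little about the 12 genes. Nkx6-1, a class II factor of the p2, pMN and p3 domains, had 33.6 ± 1.04 CPM in KO and 31.0 ± 1.86 CPM in WT (SD, n = 4 each; log2 fold change 0.11, edgeR adjusted p = 0.822). For Nkx6-2 it was 0.29 (adjusted p = 0.882), but 0.17 without KO replicate 4 and 0.045 once the muscle and mesenchyme score was included. Foxa2 is given above.

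Dbx1, the class I factor of p0 progenitors, had 19.4, 17.6, 20.2 and 20.1 CPM in KO replicates 1 to 4, against 19.7, 13.8, 15.3 and 15.6 CPM in WT replicates 1 to 4. KO libraries were higher than every WT library other than WT replicate 1 (log2 fold change 0.25, SE 0.10, edgeR adjusted p = 0.731). Without WT replicate 1 the log2 fold change was 0.38 and Dbx1 passed (adjusted p = 0.0386). Pax3 and Pax6, class I factors of the dorsal and middle neural tube, had log2 fold changes of −0.17 and −0.10. These were 0.06 and 0.14 once the mesenchyme score entered the model, and −0.083 and −0.029 without WT replicate 1. That library was the highest of the 8 for 5 of the 7 class I genes, against 20.2% of all genes. The general neural progenitor markers had log2 fold changes below zero for 7 of 8 genes, with a median of −0.20. Of the 8, 0 were called and 4 reached an unadjusted p under 0.05, against 0.299% and 6.35% of all genes. Among the 7 were Sox3 (−0.29), Sox2 (−0.22) and Hes5 (−0.21). Once the mesenchyme score entered the model these were −0.11 for Sox3, −0.0043 for Sox2 and −0.026 for Hes5. Without WT replicate 1, the highest library for 5 of the 8 markers, they were −0.20, −0.16 and −0.17 in the same order. The 8 progenitor markers summed to between 1661 and 1740 CPM in KO libraries and between 1749 and 1998 CPM in WT libraries. Their mean log2 CPM, which weighs each gene alike, overlapped: 6.64 to 6.87 in KO libraries and 6.82 to 6.99 in WT libraries.

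Outside the neural tube, 8 mesenchymal genes known to respond to hedgehog signals were all above zero, with a median log2 fold change of 0.12, beside 0.12 for the 18 sclerotome and mesenchyme markers, a list that shares Pax1, Pax9, Foxc2 and Nkx3-2 with them. None of the 8 passed in edgeR (0.299% of all genes did), DESeq2 or limma-voom. At an unadjusted p under 0.05, which 6.35% of all genes reached, there was 1 of the 8. That gene was Nkx3-2, a homeobox factor of sclerotome, with 14.7 ± 2.21 CPM in KO and 12.04 ± 1.87 CPM in WT (SD, n = 4 each; log2 fold change 0.29, SE 0.12, edgeR adjusted p = 0.76). Its log2 fold change was 0.18 without KO replicate 4 and 0.042 once the mesenchyme score entered the model. The forkhead genes Foxf2 and Foxd1 had 0.15 and 0.10, the second of them −0.10 once the mesenchyme score entered the model. WT replicate 1 was the lowest of the 8 libraries for 4 of these 8 genes and for 11 of the 18 sclerotome and mesenchyme markers, against 20.6% of all genes. It was the lowest for Gli1 too, but for no other of the 9 hedgehog genes.

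Among mesenchyme markers Pdgfra (0.16) and Meox2 (0.24) had the smallest p with Nkx3-2. The 13 skeletal muscle markers had a median log2 fold change of 0.31. KO replicate 4 was the highest of the 8 libraries for 10 of the 13, against 18.7% of all genes. In edgeR 0 of the 13 were called and 9 reached an unadjusted p under 0.05 (0.299% and 6.35% of all genes). Acta1 (0.34), Myod1 (0.34) and Myl1 (0.35) had the smallest p. Their part in the values of the hedgehog genes, which mesenchyme and somite cells also express, was not tested. Models that include the muscle and mesenchyme score cannot fully separate it from genotype, because the score did not overlap between the groups. Of 5 targets tied to proliferation Mycn, which drives progenitor division, had 80.6 ± 5.10 CPM in KO and 90.4 ± 3.33 CPM in WT (SD, n = 4 each; log2 fold change −0.17, SE 0.05, edgeR unadjusted p = 0.00742, adjusted p = 0.501). The cyclin genes Ccnd1 and Ccnd2 had log2 fold changes of −0.06 and −0.07, and 0 of the 5 were called, against 0.299% of all genes.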

How the data were processed

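RNA was measured in 8 libraries, 4 KO and 4 WT, grouped by the sample titles. The authors deposited raw read counts per Ensembl gene. The submitters' processing notes name build mm10, the aligner STAR (2.3.0e) and the counter featureCounts (1.4.6-p1), and further SAMtools (0.1.18), DESeq2 (1.8.2) and FastQC (0.10.1). Settings, annotation release and strand use were not given in the sources used here, so reads of overlapping genes may not be separable. Antisense or same-strand genes overlap Shh, Smo, Gli1, Gli3 and Boc, each holding far fewer counts than the member.

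Of 38355 genes, 36602 matched GENCODE M21 (GRCm38), which gave symbols, coordinates and exon lengths. Summary entries, 5 per file, held 0 counts. Counts were fitted by the quasi-likelihood method of edgeR (4.0.16, R 4.3.3) with filterByExpr, TMM scaling, robust fitting and group as the only term, adjusted over 16068 genes at a threshold of 0.05. Intervals of 95% use the fitted SE and degrees of freedom. CPM values use TMM-scaled totals, and scores average log2 CPM values (prior count 2). The sex score is the mean of Ddx3y, Eif2s3y, Kdm5d and Uty minus Xist. No pair of libraries of a group agreed within sampling noise (chi-square per gene between 4.63 and 22.6). Pairs with WT replicate 1, the deepest library, lay between 19.5 and 22.6. The other WT pairs lay between 4.63 and 8.11, and the KO pairs between 6.54 and 14.4. At these depths intervals cover the spread between libraries.

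Alternatives were RLE scaling, library totals, other filters, DESeq2 1.42.0 and limma-voom with library quality weights (limma 3.58.1). Further ones were a replicate block, 2 covariates and leaving out each library. Thinning WT replicate 1 was added after the data were seen. The members and lists were chosen with earlier results of these data known. Named were the 9 members and, in each other list, called genes and the 3 with the smallest p; some of these are not reported here.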

Additional observations from a re-analysis of the deposited data

Results flagged for a closer look

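The largest gaps between a library and the rest of its group were sought in 112 groups of 4, where chance alone marks about 1 in 20 groups; 3 were found. Gli1 stood at 49.6 CPM in WT replicate 1, far below the next WT library at 62.6 CPM, with the others up to 64.6 CPM. That library also had the lowest value of all 8 for 11 of 18 sclerotome and mesenchyme markers. Nkx3-2 stood at 17.97 CPM in KO replicate 4, above 13.2 to 13.9 CPM in the other KO libraries. Pou4f1, a sensory neuron factor that fell in KO (log2 fold change −0.52, edgeR adjusted p = 0.0188, 4 of 4 KO libraries below every WT library), stood at 58.2 CPM in KO replicate 4, below 67.2 to 68.1 CPM in the others. Its log2 fold change lay between −0.54 and −0.47 in the 7 fits that left out a single library other than WT replicate 1, where the adjusted p was between 0.0551 and 0.0871. It was −0.52 with the replicate block (adjusted p = 0.105) and −0.42 with the muscle and mesenchyme covariate (adjusted p = 1), so the call was lost in these fits at a fold close to the one given, or somewhat smaller with the covariate. Without WT replicate 1 it was −0.59 and passed (adjusted p = 0.000244).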

How the results depend on the processing

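The number of hedgehog genes called was 0 under all 18 alternatives, and Shh, Gli1, Gli2, Hhip and Boc kept their sign in each. With limma-voom the log2 fold change of Ptch1 was 0.000548 and that of Gli3 0.043. With the muscle and mesenchyme covariate Ptch1 was 0.039, Smo −0.064, Gli3 0.010 and Gas1 −0.035. Leaving out single libraries gave Ptch1 −0.084 to 0.0046, Smo −0.0062 to 0.063, Gli3 −0.058 to 0.047 and Gas1 −0.043 to 0.072; the cause was not tested. For genes outside the 9, the same covariate gave Scube2 0.050, Pax3 0.057, Pax6 0.14, Foxd1 −0.10, Ccnd1 0.015, Spon1 −0.13, Tfap2a 0.046 and Cdh5 −0.12. Limma-voom gave Spon1 −0.016 and Chrd −0.047. Without single libraries the ranges were −0.0015 to 0.13 for Spon1, −0.033 to 0.14 for Chrd, −0.020 to 0.10 for Nog, −0.29 to 0.22 for Krt8 and −0.44 to 0.29 for Cdh1. Class I and II calls lay between 0 and 1 (Dbx1, without WT replicate 1). Over all genes, 9 higher and 39 lower calls became 19 and 82 with DESeq2, 20 and 95 with limma-voom, 0 and 1 with the covariate, and 3 to 21 and 12 to 112 without single libraries. With the replicate number as a block there were 2 higher and 14 lower calls and 0 hedgehog calls. Deviations of same-numbered libraries correlated at −0.11, 0.28, −0.19 and −0.01. Differently numbered libraries were not compared in this way, so whether the numbers pair libraries was not settled. Shh and Hhip, with the fewest reads, had the largest SE.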

Other observations

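The genes whose log2 CPM followed that of Shh most closely over the 8 libraries, among genes of at least 1 CPM, were Dffa (Pearson r = 0.973), an inhibitor of a DNase in cell death, Pmpca (r = 0.925), a mitochondrial peptidase subunit, and Rrp7a (r = 0.921). For Gli1 they were Dap (r = 0.976), P3h2 (r = 0.975), a collagen prolyl hydroxylase, and Rfxank (r = 0.960). Like Gli1, each of the last 3 was lowest in WT replicate 1, P3h2 at 11.3 CPM there. These are descriptions over 8 libraries that share preparation, and each is the best of many genes, so no p is given. Markers of other tissues in the dissection held no call either: 0 of 5 endothelial markers (Tek −0.07, Cdh5 0.07 and Emcn −0.05 on the log2 scale), 0 of 5 epithelial markers (Sox17 −0.22, which endothelium also expresses, Krt8 −0.13 and Cdh1 −0.15) and 0 of 6 crest and glial markers were called in edgeR, with 0, 1 and 1 of them at an unadjusted p under 0.05. Against 0.299% called and 6.35% at that unadjusted p over all genes, these counts say little about those markers. Of the crest markers Erbb3 had a log2 fold change of 0.13 and Tfap2a −0.17.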
